A study of Mus musculus with 6 samples.

Results

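An array of oocyte and 2-cell genes on mouse chromosome 12 was described here by its DPPA4 peaks. The 9 genes were Oog1, Gm5788, Gm8300, Gm4027, Gm16381, Gm21319, Gm21936, BB287469 and Gm2001, of 21938 protein-coding genes annotated in GENCODE vM21 on chromosomes 1 to 19, X and Y. They were listed because earlier work on these same peak lists had picked out this stretch as rich in peaks of GFP-positive cells, so the excess of such peaks chose the genes and is given below as a description, with no test. All peaks in the window from 87 to 89 Mb of chromosome 12 (mm10) were taken, 45 of the 83602 GFP-negative and 183 of the 54642 GFP-positive peaks on chromosomes 1 to 19, X and Y. Of the single-copy genes beside the array, Pomt2, Gstz1, Alkbh1 and Snw1 served as the contrast, and 4 of 4 were found.

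The cells were mouse embryonic stem cells (mESCs) of a BL6/129 hybrid strain, the line EHMT2-dTAG-mcherry-mervl-gfp, in which the histone methyltransferase EHMT2 carries a dTAG degradation tag and GFP is driven by the promoter of the retroviral element MERVL. Both groups were exposed to dTAG for 72 h, so EHMT2 was depleted in the GFP-negative cells (mESCs) as well as in the GFP-positive cells (2-cell-like cells, 2CLCs), and no group with EHMT2 present was analysed here. DPPA4 was mapped by CUT&RUN, in which a nuclease is tethered through an antibody to the sites of a protein and releases the DNA there, in 2 libraries per group. Each group was deposited as 1 peak list that pools its libraries, so the replicate spread is unknown and no difference between the lists was tested. A peak is a stretch with more fragments than the background that the peak caller assumed, and whether the IgG libraries entered that background is not given in the sources used here. For each peak the lists give the fold enrichment over that background and the −log10 q of the summit, where q is the adjusted p-value of the peak caller and higher means stronger.

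DPPA4 is a small chromatin protein of pluripotent cells and early embryos that acts together with DPPA2 on genes of the 2-cell stage. Mouse 2CLCs arise spontaneously as a rare fraction of mESC cultures and switch on MERVL together with genes that the embryo transcribes at zygotic genome activation. Several of those genes sit in tandem arrays of near-identical copies, among them genes for proteins like the translation initiation factor eIF1A, which helps the ribosome scan for the start codon. Oogenesin 1, the product of Oog1, is an oocyte protein of the PRAME family, whose genes are also amplified in the mouse. UBL5 is a ubiquitin-like protein that takes part in pre-mRNA splicing.

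The 9 genes fell into 3 families. Gm5788, Gm8300, Gm4027, Gm21319, Gm21936 and BB287469 were eIF1A-like, Gm16381 and Gm2001 were UBL5-like, and Oog1 was the oogenesin. The 6 eIF1A-like genes each had a coding sequence of 432 bases in 1 exon, and RefSeq lists Gm5788 as a pseudogene. BB287469 and Gm4027 had the same coding sequence, and their transcripts of 1851 and 1850 bases were 99.8% identical. The coding sequences of Gm8300, Gm21319, Gm5788 and Gm21936 differed from that of BB287469 at 12, 15, 16 and 16 of 432 bases. The transcripts of Gm16381 and Gm2001 were 100% identical over 503 bases, and Oog1 had a copy in the array, Gm2042, whose transcript was 99.6% identical over 2442 aligned bases. The median copy number of the 31-base words of the exons in the genome was 2 for Gm8300 and Gm21319, 3 for Oog1, Gm16381 and Gm2001, 6 for Gm5788, Gm4027 and BB287469, and 8 for Gm21936. It was 1 for Pomt2, Gstz1, Alkbh1 and Snw1.

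Bases 100 to 200 of the 6 eIF1A-like coding sequences are printed 5′ to 3′ in the direction of transcription from GRCm38, since a GFP-positive peak overlapped each coding sequence and these bases hold 4 of the 6 summits. Capitals mark bases that differ from BB287469. The stretches lie at chr12:87819420-87819520 (+) for BB287469, chr12:87621699-87621799 (+) for Gm4027, chr12:87516996-87517096 (+) for Gm8300, chr12:87773588-87773688 (−) for Gm21319, chr12:87494820-87494920 (+) for Gm5788 and chr12:87795611-87795711 (+) for Gm21936.
BB287469: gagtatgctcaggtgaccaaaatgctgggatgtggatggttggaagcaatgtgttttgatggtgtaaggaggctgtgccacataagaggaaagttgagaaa
Gm4027: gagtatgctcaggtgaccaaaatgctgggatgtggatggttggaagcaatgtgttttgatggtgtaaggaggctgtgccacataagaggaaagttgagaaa
Gm8300: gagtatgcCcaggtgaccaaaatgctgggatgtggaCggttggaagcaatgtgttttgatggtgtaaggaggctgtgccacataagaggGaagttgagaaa
Gm21319: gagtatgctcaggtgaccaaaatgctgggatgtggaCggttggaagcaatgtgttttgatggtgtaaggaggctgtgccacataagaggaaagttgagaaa
Gm5788: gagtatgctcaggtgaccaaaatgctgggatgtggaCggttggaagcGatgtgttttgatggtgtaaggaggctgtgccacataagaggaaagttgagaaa
Gm21936: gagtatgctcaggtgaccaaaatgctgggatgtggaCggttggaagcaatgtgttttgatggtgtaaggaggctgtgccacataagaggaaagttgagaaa
A read of this stretch could come from several copies. The authors' alignment placed each multimapping read at 1 position, so where copies share the sequence, the copy that gave rise to a peak cannot be told apart. Not every array summit was repeated. The GFP-positive summit 359 bp downstream of the start of Gm5039, another gene of the array, had a copy number of 1. The peaks are calls against the assumed background, and whether each reflects DPPA4 at some copy was not tested.

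The 250 bases upstream of the RefSeq start were printed for 4 listed genes and for Gstz1, to show their CpG content, with every CpG in capitals. The positions on GRCm38 are chr12:87816327-87816576 (+) for BB287469, chr12:87775756-87776005 (−) for Gm21319, chr12:87795250-87795499 (+) for Gm21936, chr12:87602415-87602664 (+) for Oog1 and chr12:87146915-87147164 (+) for Gstz1.
BB287469: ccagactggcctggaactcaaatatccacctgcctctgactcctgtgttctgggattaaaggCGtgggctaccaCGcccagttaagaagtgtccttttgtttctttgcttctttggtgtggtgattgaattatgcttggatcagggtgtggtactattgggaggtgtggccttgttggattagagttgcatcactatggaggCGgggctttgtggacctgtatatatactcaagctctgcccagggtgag
Gm21319: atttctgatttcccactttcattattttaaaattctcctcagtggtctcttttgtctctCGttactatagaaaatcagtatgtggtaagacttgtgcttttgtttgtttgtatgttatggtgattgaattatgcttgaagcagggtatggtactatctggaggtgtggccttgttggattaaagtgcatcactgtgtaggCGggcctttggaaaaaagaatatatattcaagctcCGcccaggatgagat
Gm21936: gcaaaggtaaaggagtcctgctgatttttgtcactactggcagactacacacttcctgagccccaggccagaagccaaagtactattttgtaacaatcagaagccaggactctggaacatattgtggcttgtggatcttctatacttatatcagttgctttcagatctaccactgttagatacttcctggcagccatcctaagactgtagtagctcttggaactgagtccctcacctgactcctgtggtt
Oog1: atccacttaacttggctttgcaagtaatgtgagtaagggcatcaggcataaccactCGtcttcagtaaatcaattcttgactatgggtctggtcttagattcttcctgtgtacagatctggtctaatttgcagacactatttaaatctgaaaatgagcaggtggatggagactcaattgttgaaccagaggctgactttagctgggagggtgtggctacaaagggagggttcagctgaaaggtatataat
Gstz1: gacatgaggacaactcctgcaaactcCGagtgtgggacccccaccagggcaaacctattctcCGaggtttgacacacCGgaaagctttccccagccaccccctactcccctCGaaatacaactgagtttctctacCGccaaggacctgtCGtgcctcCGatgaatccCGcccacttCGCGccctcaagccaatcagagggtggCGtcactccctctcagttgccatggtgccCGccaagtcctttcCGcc
BB287469 and Gm21319 held 3 CpGs each, Oog1 held 1 and Gm21936 held 0, while the printed start of Gstz1 held 13. The printed bases of Gm21936 lie just before its coding sequence, unlike those of BB287469 and Gm21319. A second RefSeq start of Gstz1, at chr12:87157353-87157602, held 3 CpGs, as many as BB287469. RefSeq upstream sequence was found for 7 of the 9 genes and 3 of the 4 neighbours. Of 32851 RefSeq promoters, 37.8% had 3 or fewer CpGs in these 250 bases, 18.8% had 1 or fewer, and the median was 6. Counted upstream of the GENCODE starts, CpGs ranged from 0 to 4 in the 9 listed genes (median 2) and from 11 to 14 in the 4 neighbours (median 13). The 12 other single-copy genes of the window ranged from 0 to 36 (median 8.5), so they overlapped the listed genes. The 12 other multi-copy genes ranged from 0 to 4 (median 1). The upstream bases of Gm4027 and BB287469 were identical over 209 aligned bases, and those of Gm21319 were 81.6% identical to BB287469 over 168.

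Peak numbers in the window stood apart from its surroundings. The GFP-positive list held 183 peaks against 45 in the GFP-negative list, 4.07 times as many, although genome-wide the GFP-positive list was the shorter one. Much of the excess lay in weak peaks. Among peaks whose −log10 q reached 5, 35 GFP-positive and 21 GFP-negative peaks were left in the window, and the 10000 strongest peaks of each list left 7 and 5. Between 85 and 87 Mb the order was the reverse, with 177 GFP-negative and 76 GFP-positive peaks, and between 89 and 91 Mb there were 7 and 8. Of 1354 bins of 2 Mb across the genome, 321 (23.7%) held more GFP-positive than GFP-negative peaks, and 7 had a ratio at least as high as the window, of which 1 overlapped it. Merging peaks that shared at least 1 bp gave 197 regions, of which 154 held GFP-positive peaks alone (GFP-positive-specific, 78.2%, Wilson 95% interval 71.9 to 83.4), 29 held peaks of both lists (common, 14.7%, 10.4 to 20.3) and 14 held GFP-negative peaks alone (GFP-negative-specific, 7.11%, 4.28 to 11.6). Over the genome 18.4% of regions were GFP-positive-specific, and since the window was chosen for them nothing is read from that gap. In the lists of 10000 peaks, 8 regions were left in the window, of which 50% were common and 37.5% GFP-positive-specific. These intervals cover counting error only. Every sample was sequenced to 1 stated depth, but how many reads remained after filtering is unknown.

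**Figure D1:**
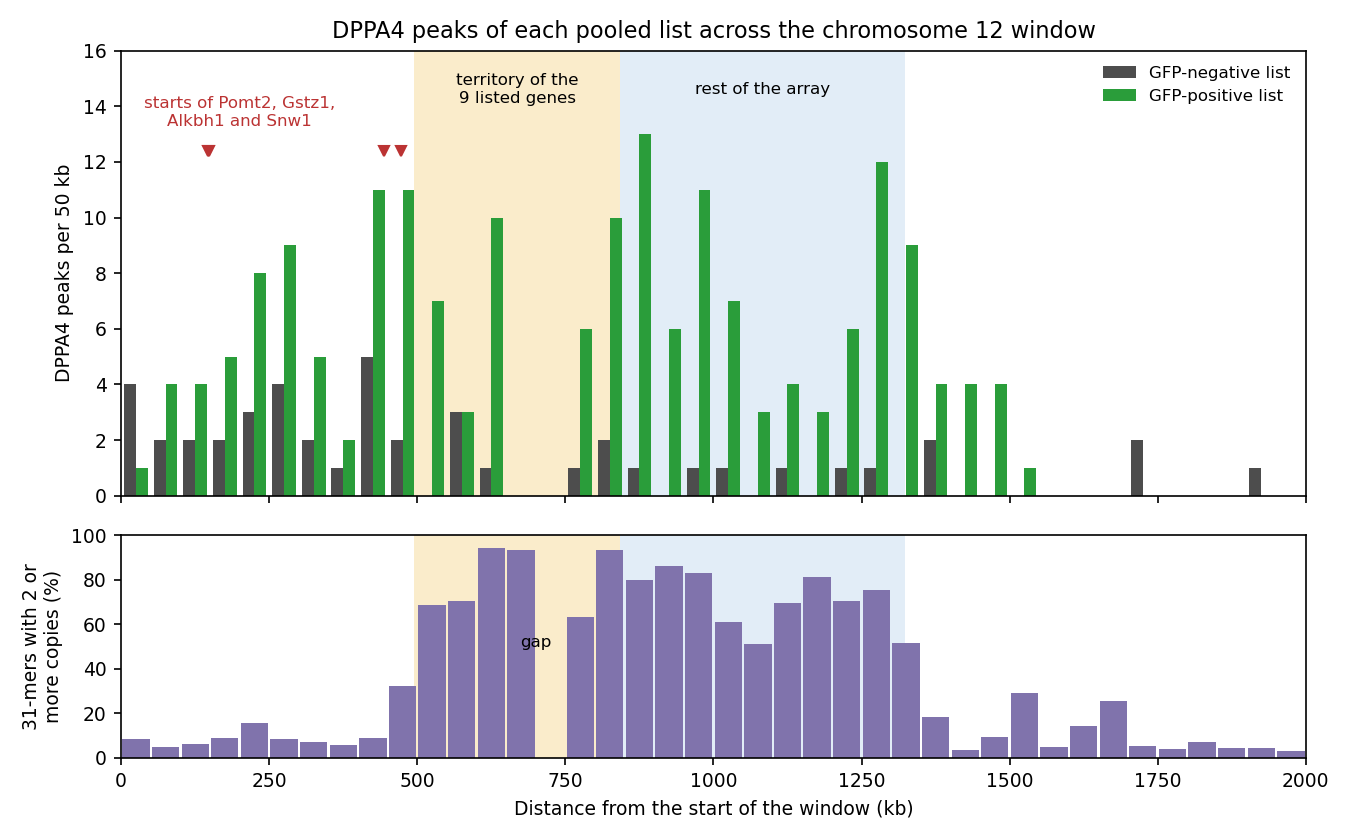
Upper panel, number of DPPA4 peak summits per 50 kb (bars, GFP-negative and GFP-positive list) against distance from the start of the 2-Mb window in kb, with the territory of the 9 listed genes and the rest of the array shaded and the starts of the 4 neighbours marked by triangles. Lower panel, percent of 31-base words with 2 or more copies in the genome. The GFP-positive excess begins before the repeated sequence and runs through it, to about 1500 kb, after which both lists are nearly empty.

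The territory of the listed genes, from the start of Gm5788 to the end of Gm2001 (chr12:87494721-87842339), held 7 GFP-negative and 38 GFP-positive peaks. Per 100 kb of sequence these were 2.83 and 15.4 peaks, against 3.07 and 2.005 over the genome. Among peaks whose −log10 q reached 5 the territory held 1.21 and 3.23 per 100 kb. GFP-positive peaks covered 18.2% of the territory and GFP-negative peaks 1.49%. The territory includes an assembly gap of 100000 bp between Gm16381 and Gm21319, and 78.2% of its 31-base words occurred at least 2 times in the genome, 44.5% with all their copies inside the window. Of its 41 regions, 34 (82.9%, 68.7 to 91.5) were GFP-positive-specific, 4 were common and 3 were GFP-negative-specific.

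The same order of the lists held on both sides. The rest of the array, to the end of Gm5039 at 88324026, had 6 GFP-negative and 71 GFP-positive peaks (1.25 and 14.7 per 100 kb), with 66 of its 72 regions GFP-positive-specific. The stretch upstream of the array, which holds the 4 single-copy neighbours and in which 9.91% of words were repeated, had 27 GFP-negative and 57 GFP-positive peaks (5.46 and 11.5 per 100 kb), and 39 of its 64 regions were GFP-positive-specific while 18 were common. Of those 39 regions, 10 had a summit that matched another place in the window, some of them array-like sequence beside Gm5788 and Snw1. The stretch downstream of the array had 5 GFP-negative and 17 GFP-positive peaks (0.740 and 2.52 per 100 kb), fewer of both than the territory.

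The promoter windows of most eIF1A-like genes overlapped GFP-positive peaks without a GFP-negative partner, though not every summit lay inside the window. The promoter window covered 2.5 kb before and 0.5 kb after any start annotated in GENCODE. BB287469 (chr12:87816577-87820676) had a GFP-positive peak from −502 to 1581 bp relative to its start, with a fold enrichment of 4.74 and a −log10 q of 4.91, and its nearest GFP-negative summit lay 15868 bp away. Gm4027 (chr12:87618869-87622955), its near-identical copy, had a GFP-positive peak from −249 to 1706 bp with a fold enrichment of 3.59 and a −log10 q of 3.08, and no GFP-negative peak within 10 kb. The summits of these peaks lay 1119 bp (BB287469) and 1457 bp (Gm4027) downstream of the start, beyond the promoter window. The lowest −log10 q in the GFP-positive list was 1.301.

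Gm8300 (chr12:87514316-87518266) was similar, with a GFP-positive peak across its start of fold enrichment 4.04 and −log10 q 3.44 and the nearest GFP-negative summit 31863 bp away. The summit of its peak lay 359 bp downstream of the start, inside the window. Of the single-exon copies, Gm5788 (chr12:87494721-87495155) had 2 GFP-positive peaks in its promoter window. The stronger had a fold enrichment of 6.08 and a −log10 q of 7.33, the highest among the listed promoters, but its summit lay 2665 bp upstream, outside the window. Gm21936 (chr12:87795512-87795946) had 2 as well, with a −log10 q of 4.30 at the start and of 2.07 with a summit 2465 bp upstream. The models of Gm5788 and Gm21936 begin at the coding sequence, so their peak at the start is also their peak over the coding sequence. In the other eIF1A-like genes the coding sequence begins downstream of the start, so the promoter windows do not cover matching sequence. Gm21319 (chr12:87772425-87775755) was the eIF1A-like gene without a promoter peak in either list, and its nearest GFP-positive summit lay 2099 bp downstream of its start.

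Oog1 differed from the eIF1A-like genes in that both lists held a peak at its promoter. For Oog1 (chr12:87602688-87608850) the GFP-negative peak had a fold enrichment of 3.90 and a −log10 q of 2.44, and the GFP-positive peak that overlapped it had 3.63 and 2.65. The GFP-negative summit lay 1078 bp and the GFP-positive summit 227 bp upstream of the start. The values of both lists were close to each other and weak, and the peaks were 301 and 1468 bp wide. Gm2042, the copy of Oog1, had a GFP-positive promoter peak (−log10 q 2.66) and no GFP-negative one, and Gm10436, another copy, had neither.

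The UBL5-like pair differed although their transcripts were identical. Gm16381 (chr12:87644118-87644620) had a GFP-positive promoter peak with a fold enrichment of 3.13 and a −log10 q of 1.46, close to the lowest value the list holds, and no GFP-negative peak. Gm2001 (chr12:87841837-87842339) had none in either promoter window, but a common region downstream, at chr12:87838554-87840356, held a GFP-negative peak of −log10 q 2.95 and a GFP-positive peak of 3.44.

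By count, 7 of the 9 listed promoters overlapped a GFP-positive peak and 1 a GFP-negative peak, 6 overlapped a GFP-positive peak alone and 2 neither. Genome-wide, 61.9% of promoters overlapped a GFP-positive peak, 70.0% a GFP-negative peak, 59.9% both and 1.99% a GFP-positive peak alone. The list was chosen in view of these peaks, so no meaning is read from the gap between 6 of 9 and 1.99%. Of the 12 other multi-copy coding genes of the array, 11 had a GFP-positive promoter peak alone and Gm10436 had none. Several of these models, Gm2022 and Gm8332 among them, also begin at the coding sequence. Among peaks whose −log10 q reached 5, 1 listed promoter kept a GFP-positive peak, that of Gm5788, and none a GFP-negative one. The summit of the peak kept at Gm5788 lay outside the promoter window.

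**Figure D2:**
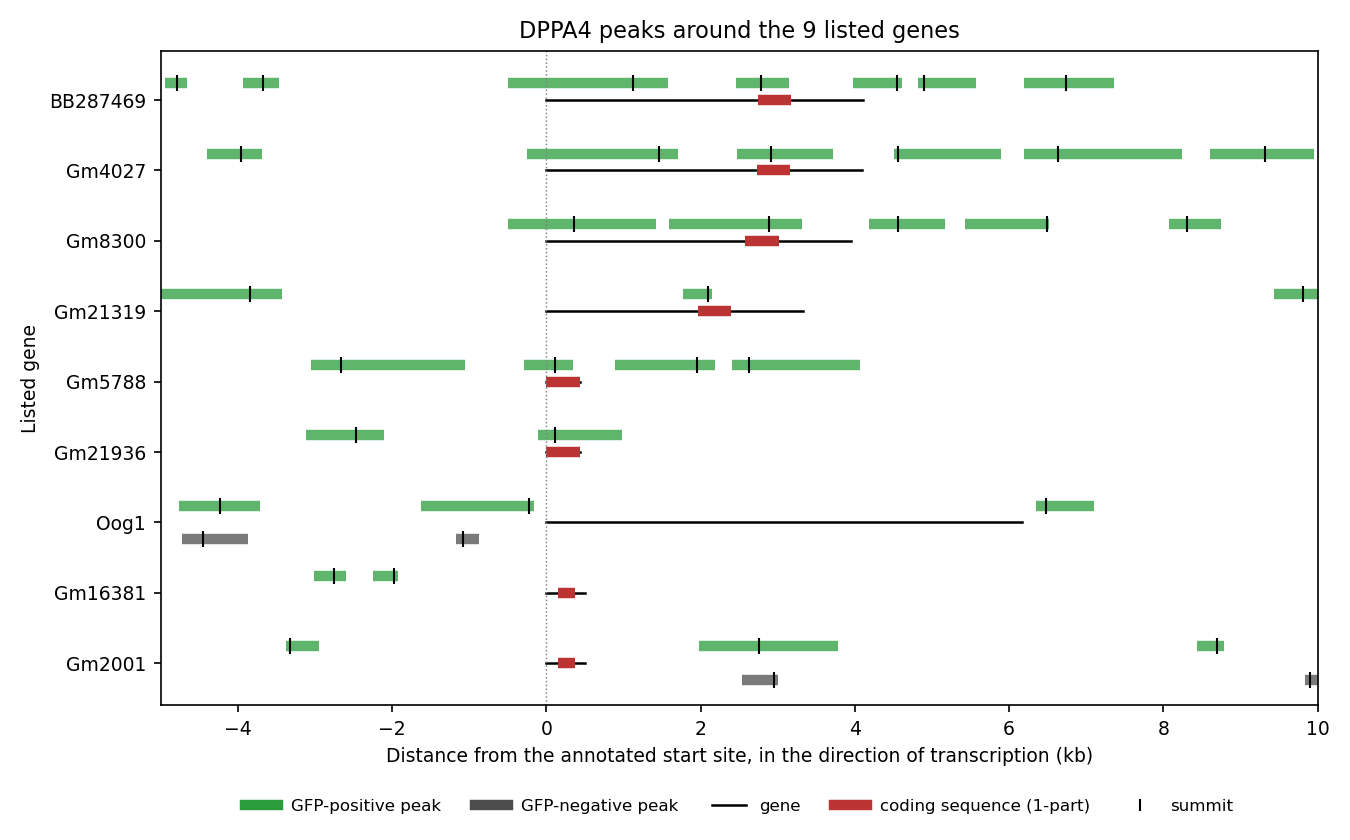
DPPA4 peaks around the 9 listed genes (rows) by distance in kb from the annotated start, in the direction of transcription. GFP-positive peaks are drawn above and GFP-negative peaks below each gene line, ticks mark summits, and thick red bars mark coding sequences that consist of 1 part. Some peaks of BB287469, Gm4027 and Gm8300 recur at similar distances, and GFP-negative peaks appear at Oog1 and Gm2001.

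The eIF1A-like coding sequences overlapped peaks of the GFP-positive list. Each of the 6 eIF1A-like coding sequences overlapped a GFP-positive peak with its summit inside the coding sequence, and 0 of 6 overlapped a GFP-negative peak. For Gm5788 and Gm21936 this peak was also counted at the promoter. The summits lay at coding base 34 in BB287469, 108 in Gm21936, 120 in Gm5788, 132 in Gm21319, 187 in Gm4027 and 304 in Gm8300, with −log10 q of 3.08, 4.30, 2.48, 3.46, 3.98 and 7.96 in that order. The other 10 genes of the array with a coding sequence of 432 bases gave 8 with a GFP-positive peak and 0 with a GFP-negative one, leaving Gm6803 and Gm16368 without either. In all, 14 of 16 such coding sequences overlapped a GFP-positive peak. The coding sequences of Gm16381, Gm2001, Oog1 and the copies of Oog1 overlapped no peak of either list. Genome-wide, 3.75% of coding genes had a coding sequence overlapped by a GFP-positive and no GFP-negative peak. The genes were listed in view of such peaks and these counts were chosen after their values were seen, so nothing is read from that gap. A read that matches several copies equally well can be placed at any of them, so the coding sequences are not independent. Among peaks whose −log10 q reached 5, 4 of the 16 coding sequences and 1 of the 6 listed ones, that of Gm8300, kept a peak.

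Some peaks recurred at similar distances in the near-identical genes BB287469 and Gm4027. Beside the peak across the start and the one over the coding exon, BB287469 had GFP-positive summits 4552 and 6738 bp downstream of its start, and Gm4027 had summits at 4561 and 6628 bp. Other peaks had no close counterpart, with summits 4900 bp downstream and 4786 bp upstream of BB287469 and 9318 bp downstream of Gm4027. The summits at 6738 and 6628 bp belonged to the strongest peak near each gene, with a −log10 q of 6.28 for BB287469 and 8.38 for Gm4027. In Gm8300 the peak over the coding exon was the strongest (−log10 q 7.96), followed by the start (3.44). The single-exon models had, beside the peak at their start, a peak with its summit 2665 bp upstream of Gm5788 and 2465 bp upstream of Gm21936.

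All 9 listed genes had more GFP-positive than GFP-negative peaks within 10 kb. GFP-positive peaks numbered 7 at Gm5788, Gm4027 and BB287469, 6 at Gm8300, 5 at Oog1, 4 at Gm21319, 3 at Gm21936 and Gm2001 and 2 at Gm16381. GFP-negative peaks numbered 2 at Oog1 and at Gm2001 and 0 at the other 7 genes. Counting each peak once, 40 GFP-positive and 4 GFP-negative peaks lay within 10 kb of a listed gene. Genome-wide, 14.8% of genes had more GFP-positive than GFP-negative peaks within this distance. Neighbouring genes share peaks, so the 9 counts are not independent.

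The single-copy neighbours differed from most listed genes in holding a GFP-negative as well as a GFP-positive peak at their promoters. Pomt2, a protein O-mannosyltransferase, and Gstz1, an enzyme of tyrosine breakdown, share a promoter region whose peak reached a −log10 q of 44.5 (fold enrichment 18.7) in GFP-negative cells and of 40.2 (17.2) in GFP-positive cells. At Alkbh1, a nucleic acid demethylase, the fold enrichments were 5.22 (GFP-negative) and 6.12 (GFP-positive) with −log10 q of 4.57 and 8.40. At Snw1, a splicing and transcription cofactor, the peaks that overlapped each other had a −log10 q of 12.8 in GFP-negative and 4.53 in GFP-positive cells, and a further GFP-positive peak upstream, of 4.97, had no GFP-negative partner. All 4 promoters overlapped peaks of both lists. Within 10 kb, each of the 4 had 2 GFP-negative peaks, and 4, 5, 9 and 10 GFP-positive peaks for Pomt2, Gstz1, Alkbh1 and Snw1, 6 and 20 when each peak is counted once. The excess of GFP-positive peaks was therefore seen near these single-copy genes too, and the listed genes differed from them in that 8 of 9 had no GFP-negative promoter peak. Some peaks near Snw1 lay in array-like sequence, and the one at chr12:87479529-87484767 was also within 10 kb of Gm5788. Among peaks whose −log10 q reached 5, 3 GFP-negative and 4 GFP-positive peaks were left within 10 kb of the neighbours. Of the 12 other single-copy genes of the window, 9 had promoter peaks in both lists, and Tmed8, Samd15 and Noxred1 had GFP-positive ones alone.

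**Figure D3:**
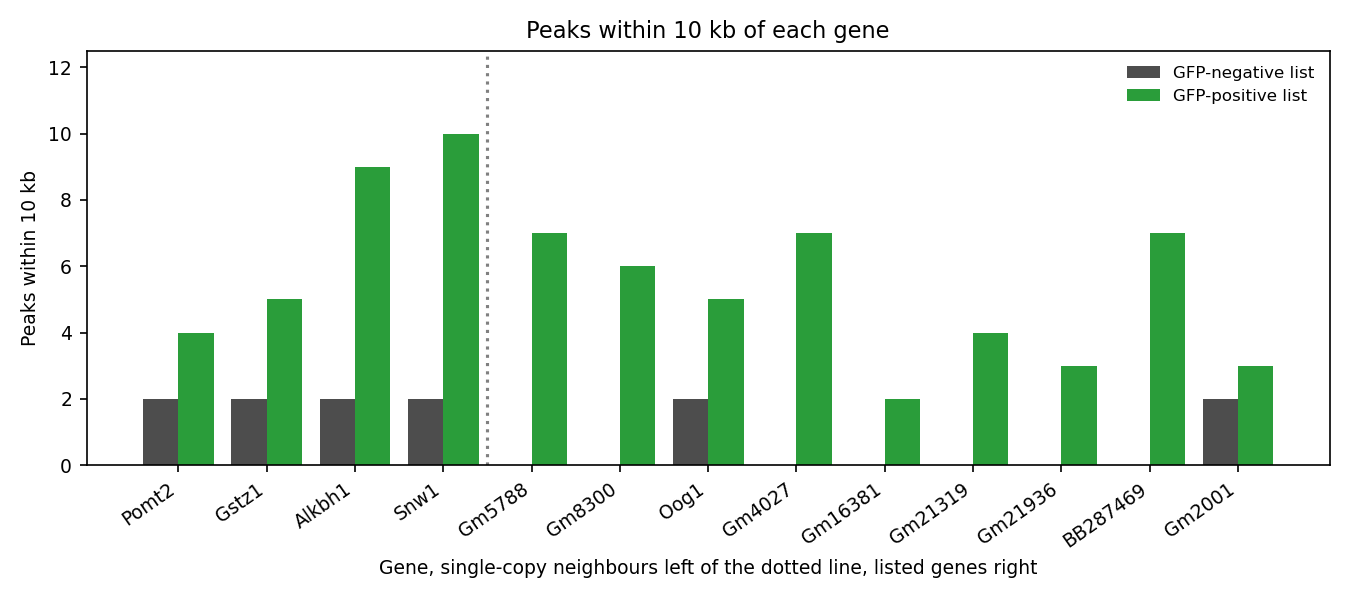
Number of DPPA4 peaks within 10 kb of each gene (bars, GFP-negative and GFP-positive list), with the 4 single-copy neighbours left of the dotted line and the 9 listed genes right of it. Each neighbour has 2 GFP-negative peaks, 7 of the 9 listed genes have 0, and GFP-positive counts run from 2 to 7 at listed genes and from 4 to 10 at neighbours.

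The strongest peaks of the window were shared by the lists. In both, the 3 peaks of highest −log10 q lay at the promoter of Sptlc2, a subunit of serine palmitoyltransferase (68.4 GFP-negative, 48.5 GFP-positive), at the promoter of Pomt2 and Gstz1 (44.5 and 40.2), and upstream of Oog1 (41.0 and 36.7). The last one, at chr12:87597926-87598975, was the strongest region of the territory, with a fold enrichment of 15.6 (GFP-negative) and 16.04 (GFP-positive), and its GFP-negative summit lay 4444 bp upstream of the start of Oog1. Its summit sequence was entirely soft-masked, which marks repeats, with a median of 1757.5 genomic copies of its 31-base words. The GFP-positive-specific region of highest −log10 q in the window lay at single-copy sequence, the promoter of Tmed8 and Samd15 (21.4), and that in the territory, at chr12:87566723-87567874, had a −log10 q of 12.2, a fold enrichment of 8.20 and a copy number of 2. The GFP-negative-specific region of highest −log10 q (6.44, fold enrichment 6.18, copy number 3) lay at chr12:87759924-87760609, 15459 bp from the start of Gm21319.

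The bases from 50 before to 50 after the summits of the strongest common region, the strongest GFP-positive-specific region of the territory and the GFP-negative-specific region are printed from the plus strand of GRCm38 (chr12:87598194-87598294, chr12:87566939-87567039 and chr12:87760246-87760346), with CpGs in capitals, to set the 3 kinds of site side by side.
Common region upstream of Oog1: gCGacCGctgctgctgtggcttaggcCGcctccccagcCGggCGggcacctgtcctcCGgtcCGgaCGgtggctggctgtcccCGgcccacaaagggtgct
GFP-positive-specific region: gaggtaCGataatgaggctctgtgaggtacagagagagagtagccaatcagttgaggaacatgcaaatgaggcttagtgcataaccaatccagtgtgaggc
GFP-negative-specific region: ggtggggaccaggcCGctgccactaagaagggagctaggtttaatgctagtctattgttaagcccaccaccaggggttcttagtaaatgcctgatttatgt
The common summit held 9 CpGs in these bases and the other summits 1 each. Within the territory, the 4 common regions had a median copy number of 83.5 and a median of 8 CpGs in the 100 bases on either side of the summit, and the 34 GFP-positive-specific regions a median copy number of 3 and of 1 CpG. Since the summits were chosen by their peaks, these medians are a description of the sites.

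**Figure D4:**
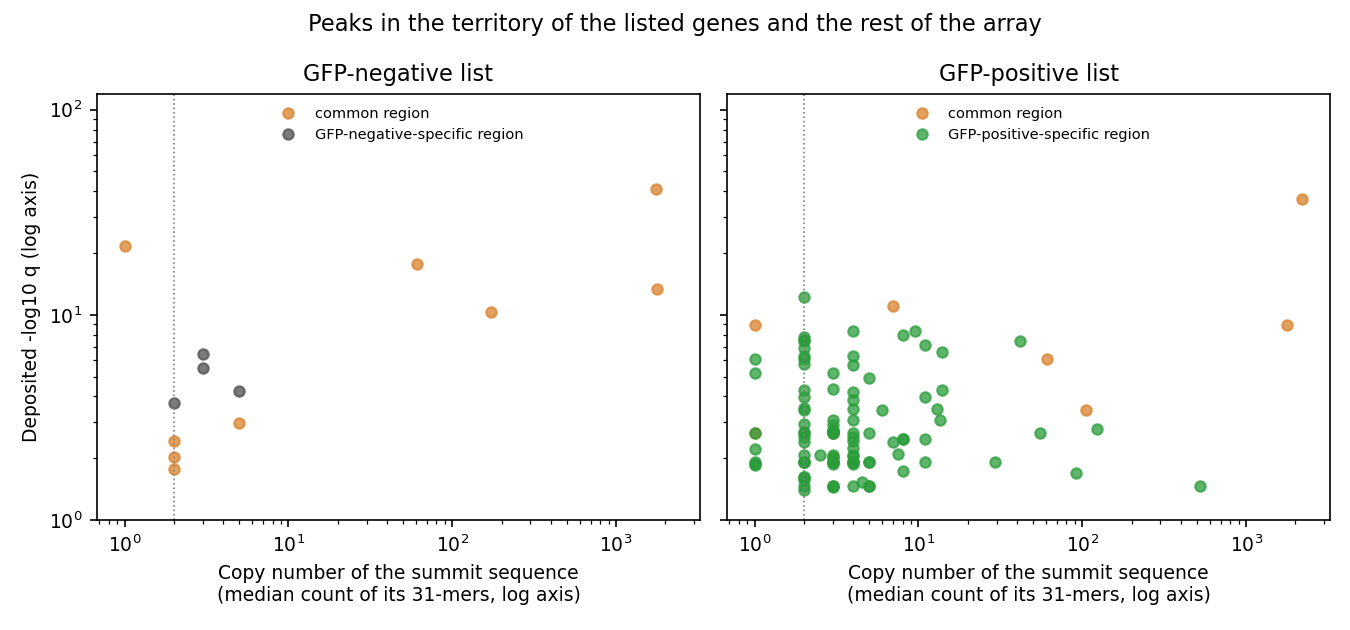
Deposited −log10 q of each peak (log axis) against the copy number of its summit sequence (log axis, median count of 31-base words), for peaks in the territory of the listed genes and the rest of the array, in the GFP-negative list (left) and the GFP-positive list (right). GFP-positive-specific peaks gather at low copy numbers of 2 or more (dotted line at 2), and the strongest peak of either list lies at a copy number above 1000.

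Summits in the array lay in sequence repeated a few times, often with every copy inside the window. In the territory, 34 of 34 GFP-positive-specific summits matched at least 1 more place in the window (at least 80% identity over 160 bases), 32 of 34 had a copy number from 2 to 20, and 20 of 34 had all copies of their words inside the window. A match elsewhere in the window was not particular to them, since the 7 GFP-negative summits of the territory all had one and most of the territory is repeated. The peak across the start of BB287469 had a summit that matched 24 places in the window, 17 of them inside a GFP-positive peak and 0 inside a GFP-negative peak. The summit of Gm21936 in its coding sequence matched 19 places, with 14 and 0. The strongest common summit upstream of Oog1 matched 5 places, with 4 in GFP-negative and 4 in GFP-positive peaks. Random placement of reads among equally good copies can spread 1 source over several of these places, and its part in the counts was not tested.

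Summits alike to each other formed 7 groups of at least 3 among the 228 summits of both lists, and a representative of each is printed, as 61 bases around its summit on the plus strand of GRCm38 with CpGs in capitals. They are centred within the first intron of Gm2016 (group 1, chr12:87874380-87874440), in the coding sequence of Gm5039 (group 2, chr12:88321342-88321402), upstream of Oog1 (group 3, chr12:87598214-87598274), in the intron of BB287469 (group 4, chr12:87817666-87817726), upstream of Gm5788 (group 5, chr12:87488873-87488933), in the coding sequence of Gm8332 (group 6, chr12:88249783-88249843) and near Gm2001 (group 7, chr12:87832415-87832475).
Group 1: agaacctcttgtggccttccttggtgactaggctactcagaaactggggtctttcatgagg
Group 2: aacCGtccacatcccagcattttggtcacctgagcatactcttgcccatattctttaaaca
Group 3: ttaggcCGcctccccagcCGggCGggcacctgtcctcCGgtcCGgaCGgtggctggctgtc
Group 4: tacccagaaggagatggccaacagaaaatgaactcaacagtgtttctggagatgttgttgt
Group 5: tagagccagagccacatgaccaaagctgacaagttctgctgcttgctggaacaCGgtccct
Group 6: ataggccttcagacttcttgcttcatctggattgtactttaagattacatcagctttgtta
Group 7: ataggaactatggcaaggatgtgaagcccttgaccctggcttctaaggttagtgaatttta
Groups 1, 2, 4, 5 and 6 held 9, 6, 4, 4 and 3 summits, all GFP-positive. Group 1 joined the summit 338 bp downstream of the start of Gm2016 with those 2665 bp upstream of Gm5788 and 3837 bp from the start of Gm21319. Group 2 held the coding summits of Gm5788, Gm21936 and Gm21319, and group 6 that of Gm8300. Group 3 held 2 summits of each list and group 7 held 2 GFP-negative and 1 GFP-positive summits, both of the former near Gm2001. The other 195 summits were alone or in pairs. Grouping compared the 100 bases on either side of each summit, so alike copies with summits at different places could be missed. The coding summits of BB287469 and Gm4027 were in none of the 7 groups, though they matched 19 and 18 places in the window.

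Promoters of relatives outside the array gave no GFP-positive peak alone. Oog2, Oog3 and Oog4 had no promoter peak in either list. Within 10 kb, GFP-positive peaks outnumbered GFP-negative ones at Oog4 (2 and 0) and at Oog3 (2 and 1), as they did at the listed genes, and Oog2 had none. For Eif1ad the −log10 q was 32.1 (GFP-negative) and 26.1 (GFP-positive), for Eif1a 19.7 and 11.0, and for Eif1ax 4.57 and 5.19, so each of these eIF1A-family promoters overlapped peaks of both lists, as the single-copy neighbours did. The lists come from sorted populations, so occupancy in fewer cells and weaker occupancy in each cell cannot be told apart.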

How the data were processed

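CUT&RUN for DPPA4 was performed by the authors in 4 libraries, 2 of GFP-negative and 2 of GFP-positive cells. The authors trimmed reads with bbduk, aligned them with STAR 2.7.10 so that a read with many matches was placed at 1 best or random position, removed duplicates with Picard 2.26.0 and blacklisted regions, and called peaks with MACS2 2.2.6, pooling the libraries of a group. SAMtools 1.14 and bedtools 2.30.0 are also named in the submitters' processing notes. The deposited fold enrichment, a ratio made by the authors, sets fragments at a summit against the background that MACS2 estimated. The deposited −log10 q is the authors' adjusted significance, and the deposited summit offset gives the summit position. The methods state an equal sequencing depth for all samples, but the depth after filtering, which limits weak peaks, is unknown. IgG libraries were not used here. Their role as a peak calling control is not given in the sources used here. Unused per-sample columns numbered 0.

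Groups were taken from sample titles. Peaks were compared by overlap of at least 1 bp (Python 3.11.15, pandas 2.3.3, numpy 2.4.6). Copy number was the median genomic count, both strands, of the 31-base words in 200 bp around a summit of GRCm38, and 2 or more was called multi-copy. By the chromosome lengths of GRCm38, 0 peaks lay beyond a chromosome end, which by itself does not establish the build. Sequence likeness was measured with BLAST 2.17.0, and sequences are from RefSeq, GRCm38.p6. Counting of words and merging of peaks were tested on simulated data. With 1 pooled list per group there were no tests, and intervals are Wilson 95% intervals that cover counting error only. Named were all 9 listed genes, the 4 neighbours, the Oog and Eif1a relatives, the 3 highest peaks per list, the strongest peak of each listed promoter and the strongest region of each class; other genes named, and the coding sequence counts and stretch, were chosen after their values were seen. Other genes of the window were split at an exon copy number of 2. The members and lists were chosen with earlier results of these data known. Alternatives were a −log10 q of at least 5, the 10000 strongest peaks per list, other overlap rules, promoter windows, distances, copy thresholds and 51-base words.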

Additional observations from a re-analysis of the deposited data

How the results depend on the processing

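No paired analysis was possible because both replicates of a group were merged into 1 list, and for the same reason no replicate could be left out. Of 62 recomputed values, 23 stayed within 1.5 times or within their interval and 39 moved; the cause was not tested beyond what each setting removes. At a −log10 q of at least 5 the window held 21 GFP-negative and 35 GFP-positive peaks, and of 46 regions 54.4% were GFP-positive-specific and 21.7% common. Listed promoters with a peak fell to 0 and 1, peaks within 10 kb of listed genes to 1 and 8 and of neighbours to 3 and 4, territory density to 1.21 and 3.23 per 100 kb, and coding sequences with a GFP-positive peak to 1 of 6 listed and 4 of 16 (added after seeing the data). With the 10000 strongest peaks per list, 5 and 7 peaks and 8 regions were left, 37.5% GFP-positive-specific and 50% common. Listed promoters were then 0 and 0, neighbour promoters 2 and 2, peaks near listed genes 1 and 2, near neighbours 1 and 2, density 0.404 and 0.808, coding sequences with a peak 0 for the listed and 0 for all copies (also added), and the multi-copy share of GFP-positive summits fell from 61.2% to 28.6%. GFP-positive counts were at least as high as GFP-negative counts at listed genes in both settings. Requiring summits within 200 bp left 7.62% common regions. Peaks within 5 kb of the start gave 2 listed genes with a GFP-negative peak, and within 25 kb there were 9 GFP-negative peaks near listed genes and 12 GFP-negative and 31 GFP-positive ones near neighbours. A copy number of 10 or more gave 8.89% (GFP-negative) and 12.02% (GFP-positive) multi-copy summits, and 51-base words gave 47.0% (GFP-positive).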
